A study of Rattus norvegicus with 11 samples.

Results

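Hox genes code for homeodomain transcription factors and lie in 4 clusters, HoxA, HoxB, HoxC and HoxD. The order of the genes along a cluster matches the order of their expression along the axis of the embryo, from anterior paralog groups with low numbers to posterior groups with high numbers. The adult gut keeps part of this map, mostly in its mesenchyme, muscle and nerves and for some genes in its epithelium, and posterior groups mark the hindgut. The Hox genes described here are all protein-coding genes of the deposited count table whose symbol is Hox followed by a cluster letter and a number. This rule used no measured value and found 34 of 24481 genes, with 10 genes in HoxA, 10 in HoxB, 6 in HoxC and 8 in HoxD. RefSeq lists 39 rat genes with such symbols, and the remaining 5 (Hoxa10, Hoxc11, Hoxc12, Hoxc13 and Hoxd12) had no row of that name and are not analysed here by symbol. A row called LOC100911668 has a RefSeq identifier that belongs to Hoxa10, and its values are given apart from the 34 genes.

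RNA of the ileum of male SD rats aged 6 to 8 weeks was sequenced in 11 stranded mRNA libraries. The 3 Control libraries came from rats that received vehicle and whose sample labels name a control plasmid. The 4 SAP libraries came from rats with severe acute pancreatitis, induced with 3% sodium taurocholate in the pancreatic duct, that received vehicle 24 h after surgery and whose sample titles name oil. The 4 JZL184 libraries came from SAP rats that received 10 mg/kg JZL184, an inhibitor of the lipase MAGL, at that time. All rats were killed 24 h after the injection. The rats of all 3 groups were allocated 24 h after surgery, but which operation the Control rats had is not given in the sources used here. How far along the ileum each piece was cut is not given for the RNA either, so position along the gut and treatment cannot be told apart from the labels alone.

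Between 26341299 and 33847135 reads per library lay on genes, and the floor of 3 reads corresponded to 0.0886 to 0.114 RPM, the reads of a gene scaled to a library total of 1000000 reads. The counts of Control libraries 1 and 2 were almost the same apart from counting noise (chi-square per gene 2.81, against 77.5 to 563 in the other pairs of a group), so they were summed into 1 sample and the Control group has n = 2. The labels name intestinal epithelial cells, but the smooth muscle gene Myh11 had 445 to 2656 RPM beside 3526 to 6016 for the epithelial gene Epcam, so every library held muscle RNA. The library labelled SAP 2 went against the stated sex of the rats. It had 7826 reads on the row that RefSeq names Xist, where the other libraries had 0 to 56, and 5 reads on the Y-linked gene Kdm5d, where the others had 162 to 2064. Results that rest on this library are given with and without it.

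The level of the Hox genes was dominated by 1 gene of HoxB. The mean FPKM, a level per transcript length, was 109 for Hoxb7 over the 10 samples, followed by 8.86 for Hoxb9, 8.74 for Hoxc8, 8.13 for Hoxb6 and 5.82 for Hoxb4. The highest mean FPKM was 1.79 in HoxA (Hoxa7) and 0.732 in HoxD (Hoxd9). Of the 34 genes, 23 had at least 100 reads over all libraries and 11 had fewer. The sparse genes lay mostly at both ends of the clusters, such as Hoxa11, Hoxa13, Hoxb1, Hoxb13, Hoxd11 and Hoxd13. The single read of Hoxb1 lay in SAP library 2. All levels below are in RPM unless FPKM is named, and are compared between libraries for 1 gene at a time. Where a gene did not overlap between groups, this is a description only. The share of all genes that did not overlap was not counted, and Control has n = 2.

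**Figure D1:**
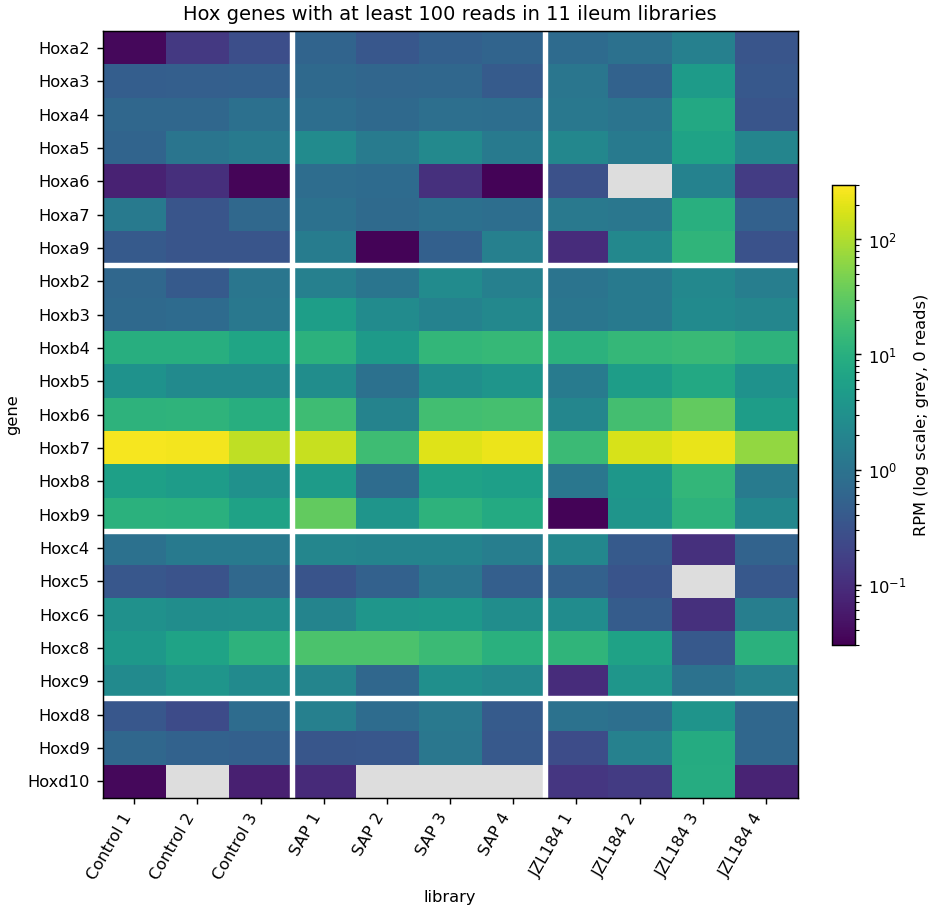
RPM of the 23 Hox genes with at least 100 reads (rows, by cluster and paralog group) in the 11 libraries (columns, by group), with color on a log scale and grey for 0 reads. Hoxb7 is the brightest row, and JZL184 library 3 has the highest value of 14 of these genes.

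Summed over all 34 genes, the Hox level was 318, 312 and 180 RPM in Control libraries 1 to 3. It was 255, 67.7, 287 and 308 in the SAP libraries and 60.5, 243, 383 and 114 in the JZL184 libraries. The SAP 2 and JZL184 1 libraries were thus the lowest, JZL184 3 was the highest, and the 3 groups overlapped. The mean was 248 ± 95.2 (SD, n = 2) for Control. It was 229 ± 109.9 (SD, n = 4) for the SAP group and 200.2 ± 144 (SD, n = 4) for the JZL184 group, so the differences between the means were smaller than the spread within the groups. The SAP mean was 0.926 times the Control mean with SAP library 2 and 1.14 times without it. In bulk RNA, fewer cells of a type and less RNA per cell cannot be told apart.

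Hoxb7, of the middle paralog groups, made up most of these sums. Its level was 260.0, 253 and 125 in Control, 139.5, 17.1, 195 and 228 in SAP, and 16.2, 174, 224 and 67.0 in JZL184. It was thus low in SAP library 2 and JZL184 library 1, intermediate in JZL184 library 4, and within the Control range elsewhere. Without Hoxb7 the remaining 33 genes summed to 58.3, 58.6 and 55.0 in Control, 116, 50.6, 92.0 and 79.8 in SAP, and 44.3, 69.8, 159 and 47.3 in JZL184. On that sum the 3 Control libraries lay close together, while both other groups spread to either side of them.

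The neighbors of Hoxb7 followed the same libraries. Hoxb6 had 11.8, 11.96 and 9.64 in Control, 17.2, 1.88, 18.8 and 19.8 in SAP, and 2.04, 19.1, 33.1 and 5.09 in JZL184. SAP library 2 and JZL184 libraries 1 and 4 lay below every Control library, and the remaining SAP and JZL184 libraries lay above them. Hoxb9, the most posterior HoxB gene with more than a few reads and a gene of thoracic patterning, had 10.6, 10.3 and 6.07 in Control, 33.2, 3.62, 11.5 and 8.34 in SAP, and 0.0324, 3.71, 11.5 and 2.16 in JZL184. JZL184 library 1 therefore held 1 read of Hoxb9, under the floor, and SAP library 1 was the highest. Hoxb8 was also lowest in SAP library 2 (0.790) and JZL184 library 1 (1.17), against 1.37 to 13.5 in the other libraries. Hoxb5 was less variable, at 0.922 to 7.76 over all libraries, and was lowest in SAP library 2 and highest in JZL184 library 3.

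Hoxb4, still a middle gene, and the anterior genes Hoxb3 and Hoxb2 followed Hoxb7 less closely. Hoxb4, a gene also known for its role in blood stem cells, had 9.81, 9.50 and 6.71 in Control, 11.3, 4.54, 13.5 and 14.6 in SAP, and 11.2, 14.0, 15.6 and 11.5 in JZL184. All 4 JZL184 libraries lay above all 3 Control libraries, including library 1, in which Hoxb7 was at its lowest. Hoxb4 was nevertheless lowest in SAP library 2, where Hoxb7 was low too. Hoxb3, a hindbrain patterning gene, had 0.698, 0.760 and 1.21 in Control, 5.23, 2.53, 1.78 and 2.19 in SAP, and 1.13, 1.29, 2.47 and 2.09 in JZL184. All 4 SAP libraries lay above the Control libraries, with library 1 the highest, while JZL184 library 1 lay within the Control range. Hoxb2 had 0.415 to 1.11 in Control and 1.04 to 2.53 in the other groups, which overlapped with it.

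HoxC varied between libraries in another way. Hoxc8, a thoracic patterning gene, had 4.04, 6.22 and 11.6 in Control, 22.4, 22.2, 16.1 and 10.2 in SAP, and 12.3, 6.07, 0.399 and 10.7 in JZL184. SAP libraries 1 and 2 were high, JZL184 library 3 was far below every other library, and the groups overlapped. Hoxc6 had 3.20, 2.70 and 2.87 in Control, 1.89, 3.85, 4.13 and 2.78 in SAP, and 2.65, 0.441, 0.109 and 1.56 in JZL184. Hoxc9, which sets thoracic identity in the spinal cord, had 2.46, 3.66 and 2.43 in Control, 1.95, 0.658, 2.99 and 2.26 in SAP, and 0.0971, 3.82, 0.979 and 1.75 in JZL184. Hoxc6 was thus lowest in JZL184 library 3, and Hoxc9 was lowest in JZL184 library 1 and next lowest in SAP library 2. Hoxc4 and Hoxc5 also had their lowest value in JZL184 library 3, 0.109 for Hoxc4 and 0 reads for Hoxc5.

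The composition of the Hox transcripts differed widely between libraries of the same group. On the FPKM scale, which allows genes to be compared, HoxC made up 2.60%, 3.91% and 9.18% of the summed Hox FPKM in Control, 10.7%, 42.7%, 7.93% and 4.83% in SAP, and 28.4%, 5.04%, 0.524% and 13.04% in JZL184. SAP library 2 and JZL184 library 1 were the 2 highest, and JZL184 library 3 was the lowest. The middle genes of HoxB, groups 4 to 8, made up 40.9% in SAP library 2, 58.4% in JZL184 library 1 and 68.5% to 91.6% in the other libraries. The share of HoxA was highest in JZL184 libraries 1 and 3, at 9.02% and 8.76%, and so was that of HoxD, at 2.10% and 4.40%.

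**Figure D2:**
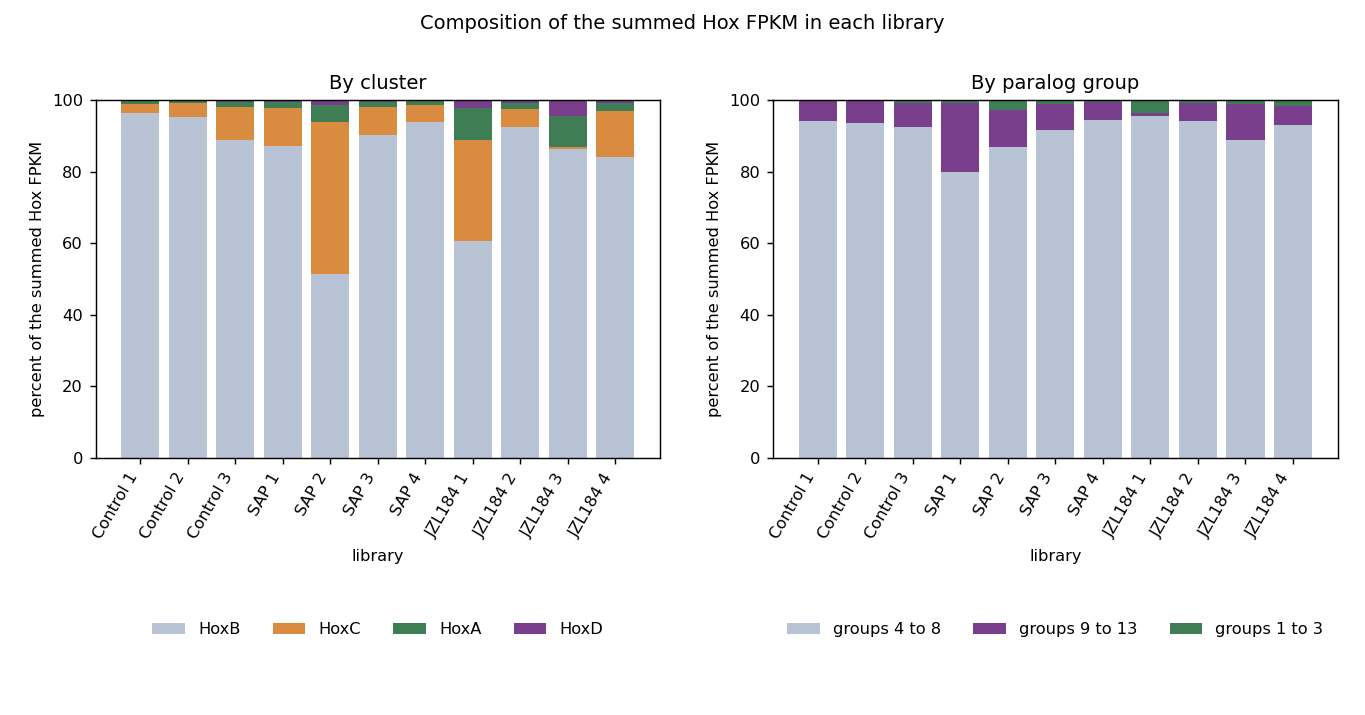
Percent of the summed Hox FPKM in each library by cluster (left) and by paralog group (right), as stacked bars that add to 100. HoxC takes 42.7% in SAP library 2 and 28.4% in JZL184 library 1 but 0.524% in JZL184 library 3, and groups 9 to 13 take the largest shares in SAP libraries 1 and 2 and in JZL184 library 3.

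HoxA and HoxD were set apart in JZL184 library 3. The summed HoxA level was 3.56, 3.18 and 4.05 in Control, 7.95, 4.74, 5.94 and 5.82 in SAP, and 6.90, 7.35, 48.1 and 4.02 in JZL184. The summed HoxD level was 1.18, 0.8293 and 1.58 in Control, 2.42, 1.25, 2.56 and 1.01 in SAP, and 1.75, 2.83, 22.9 and 1.40 in JZL184. Library 3 therefore held several times more HoxA and HoxD reads than any other library, while its HoxC sum of 1.63 was the lowest of all, against 11.1 to 29.2 in the other libraries. Of the 23 genes with at least 100 reads, 14 were highest in this library.

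Among the posterior genes, Hoxa9, which also acts in blood progenitors, had 0.404, 0.346 and 0.337 in Control, 1.42, 0.0329, 0.498 and 1.67 in SAP, and 0.0971, 2.21, 12.5 and 0.304 in JZL184. Hoxd9 had 0.661, 0.553 and 0.506 in Control, 0.355, 0.362, 1.14 and 0.392 in SAP, and 0.259, 1.73, 8.71 and 0.645 in JZL184. Hoxd10, a gene of lumbar motor neurons and the hindlimb, had 0.0367, 0 and 0.0674 in Control, 0.0886, 0, 0 and 0 in SAP, and 0.130, 0.147, 9.14 and 0.0759 in JZL184. All 3 genes were highest in JZL184 library 3, and JZL184 library 2 was next for each of them.

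The remaining posterior genes of both clusters showed the same library. Hoxa11, a gene of limb and kidney development, had 2.97 in JZL184 library 3 and at most 0.0735 elsewhere, with 0 reads in 8 of the other libraries. Hoxd11 had 1.31 there, 0.0368 in JZL184 library 2 and 0 reads in the other libraries. Hoxa13 and Hoxd13, the hindgut and digit genes at the ends of their clusters, had 0.254 and 0.109 there, close to the floor, and Hoxb13 had 0.0725, under it. These end genes were therefore at the limit of detection, while Hoxa11 and Hoxd11 were not. The row for Hoxa10, LOC100911668, had 84 reads in this library and 0 to 12 in the others. The noncoding Hoxa11-as had 159 reads there against 0 to 2, Hoxaas3 200 against 0 to 9, Hoxb5os 56 against 0 to 7, and Hotairm1 6 against 0 to 5, on a stranded kit whose use of strand in counting is not stated, so sense and antisense reads may be mixed. The row Mir196c of the same clusters had 1 read there and its highest value, 19 reads, in SAP library 1.

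The promoters of 4 of these posterior genes are shown because the genes were high together in JZL184 library 3. They are the 250 bases before the start of the gene in RefSeq's GRCr8 assembly, 5′ to 3′ on the strand of the gene, and capitals mark TTTAT on either strand, the core letters that the gut homeodomain factors CDX1 and CDX2 recognize. GRCr8 is another build than the one the reads were aligned to, and no coordinates of the deposited files are used here. The Hoxa9 promoter lay at chr4:82657049-82657298 on the minus strand and the Hoxa11 promoter at chr4:82676802-82677051 on the minus strand. The Hoxd10 promoter lay at chr3:80001697-80001946 on the plus strand and the Hoxd11 promoter at chr3:79992144-79992393 on the plus strand.
Hoxa9: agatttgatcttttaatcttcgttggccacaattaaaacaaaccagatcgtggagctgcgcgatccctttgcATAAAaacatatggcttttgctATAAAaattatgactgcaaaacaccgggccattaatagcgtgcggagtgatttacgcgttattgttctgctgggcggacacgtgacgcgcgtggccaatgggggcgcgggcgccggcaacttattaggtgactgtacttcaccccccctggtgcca
Hoxa11: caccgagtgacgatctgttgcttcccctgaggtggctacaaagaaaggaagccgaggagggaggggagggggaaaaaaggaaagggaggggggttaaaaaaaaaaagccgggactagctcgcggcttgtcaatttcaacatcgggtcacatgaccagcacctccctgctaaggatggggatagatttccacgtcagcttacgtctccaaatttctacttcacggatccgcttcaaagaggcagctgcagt
Hoxd10: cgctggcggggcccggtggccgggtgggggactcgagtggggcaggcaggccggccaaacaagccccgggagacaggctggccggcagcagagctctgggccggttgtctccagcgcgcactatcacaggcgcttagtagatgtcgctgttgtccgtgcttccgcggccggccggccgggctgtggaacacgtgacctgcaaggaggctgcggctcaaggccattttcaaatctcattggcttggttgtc
Hoxd11: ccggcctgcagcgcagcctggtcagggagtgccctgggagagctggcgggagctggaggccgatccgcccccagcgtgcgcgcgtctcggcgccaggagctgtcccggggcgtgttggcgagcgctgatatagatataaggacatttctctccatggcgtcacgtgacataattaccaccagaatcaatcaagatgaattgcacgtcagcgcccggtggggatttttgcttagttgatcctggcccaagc
Hoxa9 held the letters 2 times, both times as ATAAA on the printed strand, and the other 3 promoters held none. Of the 18 promoters of Hox genes in the RefSeq table that belong to the 34 genes, 4 held TTTAT, and of all 33469 promoters of that length 39.3% did. A match is a description of these letters only. The 4 sequences held 18, 11, 21 and 20 CG dinucleotides in the order shown, against a median of 20 in the 18 Hox promoters and of 5 in all promoters. These counts lay within the range of the Hox promoters (3 to 39), so they did not set the 4 genes apart from other Hox genes. The share of G and C was 49.6% in Hoxa9 and 52.4% in Hoxa11, near the median of 51.2% of all promoters, and 67.2% in Hoxd10 and 61.2% in Hoxd11. CG-rich promoters are typical of genes held by Polycomb, the chromatin system known for keeping Hox genes silent. A part of Polycomb in these levels was not tested.

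The anterior and middle genes of HoxA also had their highest value in JZL184 library 3. Hoxa7 had 1.32, 0.346 and 0.674 in Control, 0.945, 0.724, 0.890 and 0.850 in SAP, and 1.23, 1.14, 10.0 and 0.532 in JZL184. Hoxa4 had 0.661, 0.657 and 0.910 in Control, 0.827, 0.691, 0.854 and 0.850 in SAP, and 1.198, 1.03, 7.80 and 0.342 in JZL184. Hoxa3, a gene of thymus and parathyroid development, had 0.477, 0.484 and 0.506 in Control, 0.709, 0.625, 0.640 and 0.425 in SAP, and 1.10, 0.551, 4.72 and 0.380 in JZL184. For all 3 genes the other 10 libraries lay close together, and JZL184 library 4 was at or near the low end. Hoxa6 had 1.78 in JZL184 library 3 and 0 to 0.798 in the other libraries.

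Hoxa5, a gene of lung and foregut patterning, had 0.588, 1.07 and 1.28 in Control, 2.54, 1.38, 2.28 and 1.34 in SAP, and 2.14, 1.32, 6.38 and 1.97 in JZL184. Hoxa2, a gene of the hindbrain and the branchial arches, had 0.0367, 0.138 and 0.270 in Control, 0.591, 0.362, 0.498 and 0.589 in SAP, and 0.745, 0.919, 1.63 and 0.342 in JZL184. Hoxd8 had 0.367, 0.242 and 0.775 in Control, 1.68, 0.790, 1.25 and 0.425 in SAP, and 0.971, 0.882, 3.55 and 0.645 in JZL184. Hoxa5 and Hoxa2 were higher in every SAP and JZL184 library than in every Control library, whereas Hoxd8 overlapped between Control and both other groups. Hoxa2 rested on 1 to 8 reads in the Control libraries and on 9 to 45 in the others.

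**Figure D3:**
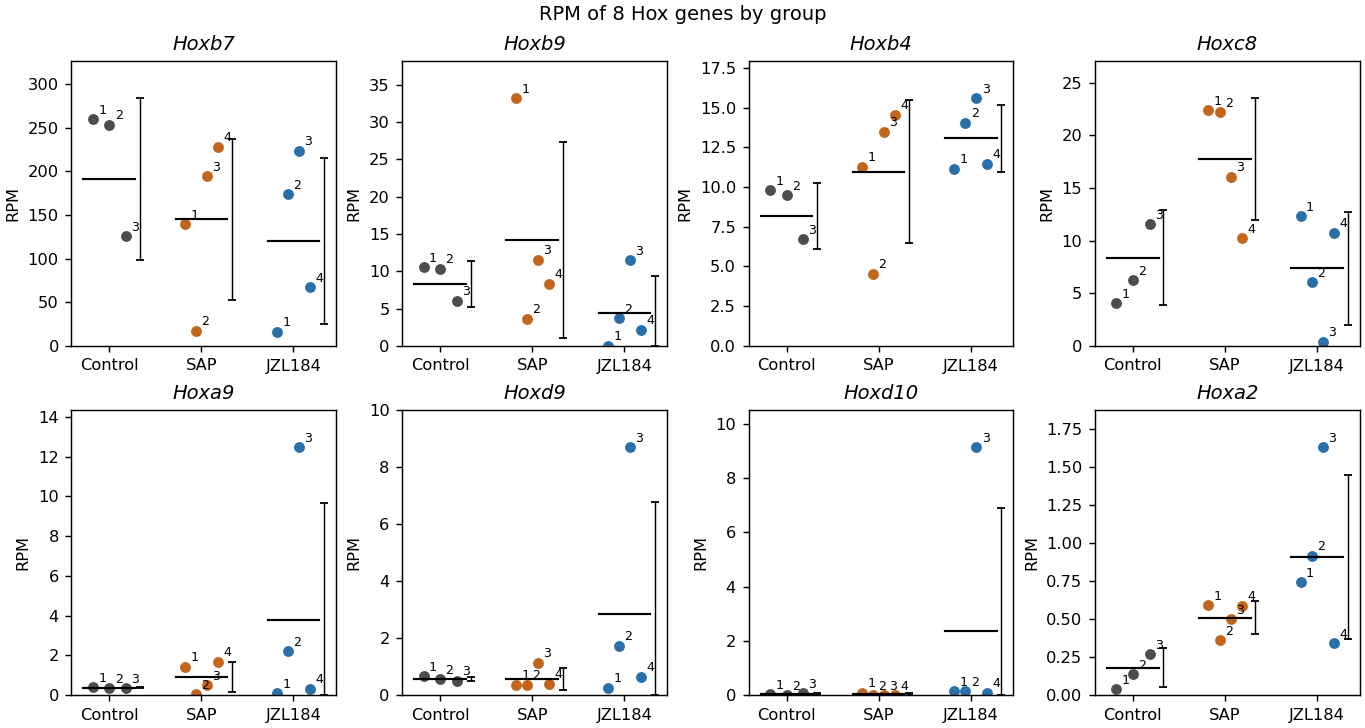
RPM of 8 Hox genes by group, with 1 numbered point per library, the group mean as a line and the SD as a bar beside it (Control n = 2, as libraries 1 and 2 count as 1 sample; a bar ends at 0 where the SD exceeds the mean). Hoxb7 and Hoxb9 are low in JZL184 library 1, Hoxd10 is near 0 in all libraries but JZL184 library 3, and Hoxa2 lies at 0.270 or below in Control and at 0.342 or above elsewhere.

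The posterior paralog groups 9 to 13 together took 4.94% ± 0.394 (SD, n = 2) of the Hox reads in Control. They took 7.88% ± 4.73 (SD, n = 4) in the SAP group and 5.68% ± 4.82 (SD, n = 4) in the JZL184 group. By library the share was 4.48%, 4.83% and 5.21% in Control, 14.8%, 6.95%, 5.65% and 4.15% in SAP, and 1.02%, 4.94%, 12.4% and 4.32% in JZL184. The groups overlapped, and the SAP and JZL184 groups had a library well above and, for JZL184, one well below the Control range. The 2 libraries with the highest share of reads reached it with different genes. In SAP library 1 the posterior HoxB genes had 33.2 RPM and the posterior HoxD genes 0.443, while in JZL184 library 3 these were 11.6 and 19.3, with 15.7 from posterior HoxA genes. Without SAP library 2 the SAP mean was 8.19%.

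Some genes of gut position outside the Hox clusters set the same libraries apart, and others did not. Gata4, the factor that keeps duodenum and jejunum distinct from ileum, had 14.1 in SAP library 2 and 30.6 in JZL184 library 1, 1.33 in JZL184 library 4 and at most 0.641 in the other 8 libraries. Lct, the lactase of the jejunal brush border, had 50.5, 303 and 23.6 in the same 3 libraries and at most 2.79 elsewhere. These were also the 3 libraries with the lowest Hoxb7. Gip, a hormone of the upper small intestine, had 83.9 in JZL184 library 1 and 25.6 in JZL184 library 4, with 15.2 in SAP library 2 and 0.0725 to 17.6 in the others, so it separated SAP library 2 from the rest less clearly. Other genes of the proximal list did not set these 3 libraries apart as a set. Cck, a hormone of the upper small intestine, had 2.83, 5.601 and 4.97 in SAP library 2 and JZL184 libraries 1 and 4, against 12.5 to 15.7 in Control. The other SAP and JZL184 libraries also lay below Control, at 1.56 to 10.8. Slc11a2, an iron transporter, was lowest of all in SAP library 2 (15.5). The fatty acid binding protein gene Fabp1 had 2345, 7684 and 2249 in the 3 libraries, against 2867 to 3926 in Control. It was thus highest of all in JZL184 library 1, as Gata4 and Lct were, but below Control in the other 2.

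Of the 8 distal genes, those of bile acid uptake were lowest in 2 libraries that differed in their Hox genes. Fabp6, the ileal bile acid binding protein, had 43.1 in JZL184 library 3, 224 in JZL184 library 1 and 1641 to 11415 in the other libraries, of which SAP library 2 was the lowest. Slc10a2, the ileal bile acid transporter, had 19.9 and 44.0 in those 2 JZL184 libraries and 165 to 639.6 in the others. The rest of the distal list did not all follow them. Cubn, which with Amn forms the ileal receptor for vitamin B12, was high in SAP library 2 (25.3) and JZL184 libraries 1 and 4 (17.0 and 14.5), against at most 3.71 elsewhere. Amn had 38.6 in JZL184 library 1, close to the 40.2 of JZL184 library 2, and 3.01 in JZL184 library 3. Slc51b, a bile acid exporter subunit, had 722 in JZL184 library 3, above SAP libraries 1 and 2 (519 and 321). JZL184 library 1 combined low Fabp6 and Slc10a2 with high Gata4 and low posterior HoxB, and JZL184 library 3 with 0 reads of Gata4 and high posterior HoxA and HoxD. Car1, a carbonic anhydrase of the colon, had 649 in JZL184 library 3, 33.4 in JZL184 library 2 and at most 1.05 elsewhere.

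The lists of position genes as wholes showed these ranges. All 10 of 10 listed proximal genes were measured, and they summed to 2935 to 3992 in Control, 1813 to 3976 in SAP and 782 to 8141 in JZL184, most of it Fabp1, with Pdx1 and Onecut2 at or near 0 in every library. All 8 of 8 distal genes summed to 13793 to 14285, 2570 to 9410 and 1047 to 7466 in the same order, and 4 of 6 colon genes to 28.2 to 55.5, 62.8 to 157 and 105 to 791. The distal sum was therefore lower in every SAP and JZL184 library than in Control, and the colon sum was higher. Each sum rested mainly on 1 gene. The distal sum of Control was mostly Fabp6, at 10856 to 11415, whereas Slc10a2 overlapped between groups, with 232 to 378 in Control and 639.6 in SAP library 1. The colon sum was mostly Slc26a3 in all libraries but JZL184 library 3, where it was mostly Car1. Slc26a3 had 25.6 to 51.8 in Control and 57.4 to 139.8 elsewhere. Smooth muscle markers summed to 4482 to 4844 in Control, 3001 to 4969 in SAP and 1069 to 5664 in JZL184, and were highest in JZL184 library 3. Epithelial markers summed to 31409 to 39507, 18273 to 28457 and 19032 to 24402. Of 5 exocrine pancreas genes, Cela1 had 5.19 to 14.4 in every library, and the others, with Prss1 and Cpa1 among them, were at or near 0. The part of any of these tissues, or of the site of sampling, in the Hox levels was not tested.

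**Figure D4:**
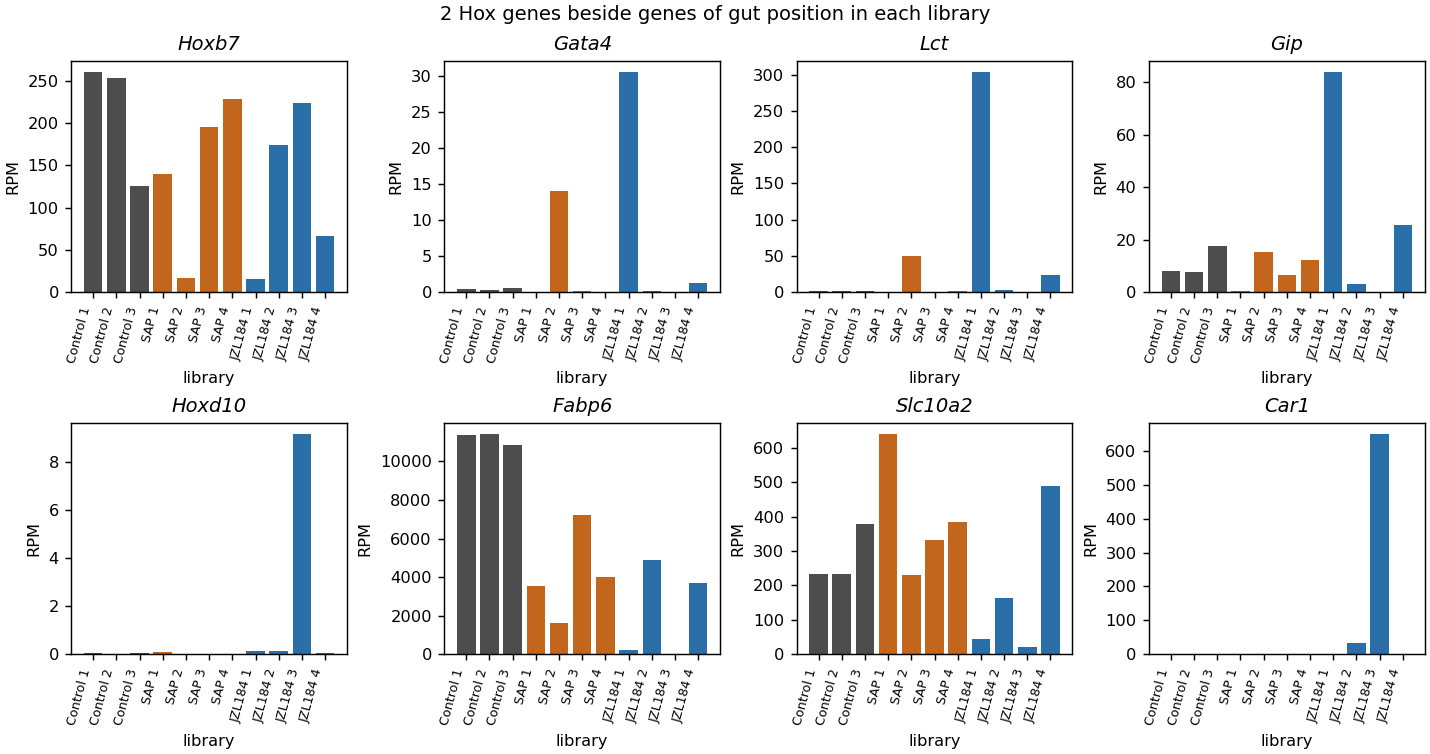
RPM of Hoxb7, Hoxd10 and 6 genes of gut position in each library, as bars that start at 0 and are colored by group. Gata4 and Lct are high in SAP library 2 and JZL184 library 1, where Hoxb7 is 17.1 and 16.2, and Hoxd10 and Car1 are high in JZL184 library 3, where Fabp6 is 43.1.

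The first comparison asked how pancreatitis alone changed the ileum. No Hox gene was called between SAP and Control, and the genes that came nearest were anterior or middle ones that lay higher in SAP. A gene was called when edgeR's quasi-likelihood test gave an adjusted p under 0.05 over all genes tested (Benjamini-Hochberg) with a change of more than 2-fold either way. Of the 34 genes, 22 passed the filter on low counts and 0 were called, where 0% of all 16029 genes tested were called (1457 had an unadjusted p under 0.05, among them 1 Hox gene). Hoxb3 had a log2 fold change of 1.40 ± 0.53 (SE, adjusted p = 0.459), Hoxa2 of 1.41 ± 0.63 (adjusted p = 0.459) and Hoxc8 of 0.90 ± 0.42 (adjusted p = 0.459). Hoxb3 and Hoxa2 did not overlap between the groups, and Hoxc8 did. How many of all genes did not overlap was not counted, so this is not read as a result about Hox genes. Without SAP library 2 the 3 log2 fold changes were 1.503 ± 0.58, 1.58 ± 0.65 and 0.81 ± 0.46. The 12 genes that failed the filter include Hoxd10 and Hoxa11, which therefore entered no test here, whereas Hoxa9 and Hoxd9 were tested. DESeq2 called 208 genes in this comparison (0.893% of 23299), and 0 of 32 Hox genes. With the 3 Control libraries as separate samples DESeq2 called Hoxb3 (log2 fold change 1.504 ± 0.468, adjusted p = 0.0269), 1 of 32 Hox genes, where it called 6.15% of all genes.

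The second comparison asked what JZL184 changed in rats with pancreatitis. No Hox gene was called, and the nearest were HoxA and HoxD genes whose highest value was that of JZL184 library 3. Of the 34 genes 21 were tested and 0 were called, where 0% of 15308 genes were (3267 had an unadjusted p under 0.05, 2 of them Hox genes). Hoxd9 had a log2 fold change of 2.41 ± 0.97 (SE, adjusted p = 0.200), Hoxa7 of 1.99 ± 0.81 (adjusted p = 0.203) and Hoxa3 of 1.58 ± 0.71 (adjusted p = 0.236). Without JZL184 library 3 these values were 0.87 ± 0.75, 0.35 ± 0.43 and 0.33 ± 0.45, so that library carried most of each difference. Without SAP library 2 they were 2.22 ± 1.10, 1.89 ± 0.93 and 1.56 ± 0.82. The groups overlapped for all 3 genes. DESeq2 called 1283 genes in this comparison (5.32% of 24116), and 0 of 34 Hox genes. With quality weights limma-voom called 699 (4.57% of 15308), and 0 of 21 Hox genes. At these shares few Hox calls could be met, so the 0 is not read as a result about Hox genes.

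The last comparison set JZL184-treated rats with pancreatitis against Control, so the effects of the disease and of the compound cannot be told apart in it. No Hox gene was called, where 343 of 15916 genes (2.16%) were. Of the 34 genes 21 were tested, and 1 had an unadjusted p under 0.05. Hoxa2 had a log2 fold change of 2.32 ± 0.80 (SE, adjusted p = 0.122), Hoxa5 of 1.38 ± 0.65 (adjusted p = 0.220) and Hoxa9 of 3.25 ± 1.68 (adjusted p = 0.255). Hoxa2 and Hoxa5 did not overlap between the groups, and Hoxa9 did, but again the share of all genes that did not overlap was not counted. Without JZL184 library 3 the values were 1.95 ± 0.77 for Hoxa2, 0.74 ± 0.47 for Hoxa5 and 1.31 ± 1.09 for Hoxa9. DESeq2 called 1899 genes in this comparison (8.04% of 23630), and 0 of 33 Hox genes, which is likewise not read as a result about them.

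The call on 2 of these genes rested on how the near-identical Control libraries were counted. With 3 separate Control libraries Hoxa2 was called against JZL184 by edgeR (log2 fold change 2.49 ± 0.70, adjusted p = 0.0348), and DESeq2 also called Hoxa5 (1.45 ± 0.56, adjusted p = 0.0398). These were 1 of 21 and 2 of 33 Hox genes, where 18.1% and 14.7% of all genes were called, so the share of Hox genes was not above the background. An alternative chosen after the data were seen left out SAP library 2 and JZL184 libraries 1 and 3, in which gut position genes stood apart. JZL184 library 4 was kept, although Lct (23.6) and Cubn (14.5) were raised in it too. Without JZL184 libraries 1 and 3, Hoxb9 was called as lower in JZL184 than in Control (log2 fold change -1.47 ± 0.44, adjusted p = 0.0336), from the values 3.71 and 2.16 against 6.07 and more. JZL184 library 3, left out here, had 11.5, above every Control library, so this call depends on the choice of libraries and is not read as a result. Hoxb9 was not called with all JZL184 libraries. It was 1 of 20 Hox genes tested in that fit, where 19.4% of all genes were called. Against SAP without SAP library 2 as well, Hoxb9 had a log2 fold change of -2.32 ± 0.66 and was not called (adjusted p = 0.191).

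**Figure D5:**
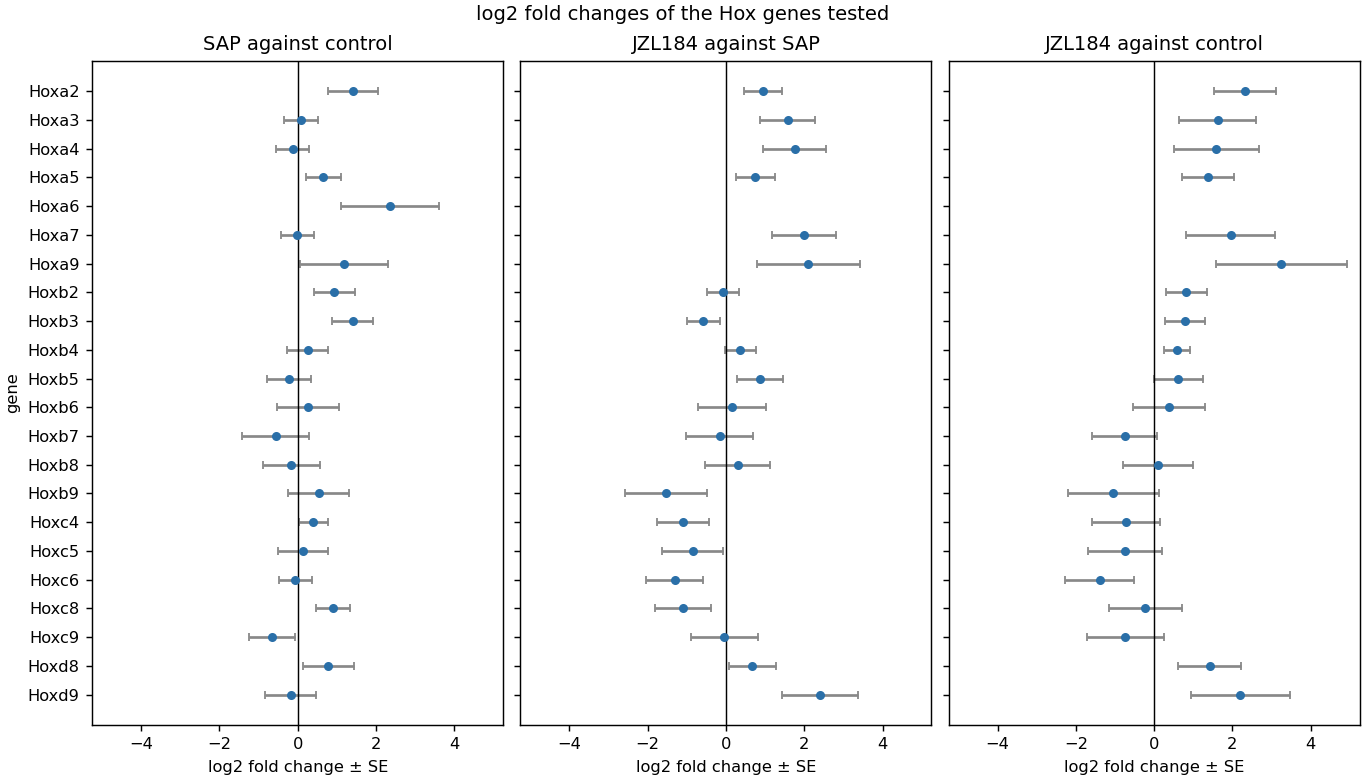
log2 fold changes (points) with their SE (bars) from edgeR for the Hox genes tested, by cluster and paralog group, in the 3 comparisons. No gene was called in any panel, and in both panels with JZL184 the HoxA points lie above 0 and the HoxC points below 0.

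The sign of the fold changes is given as a description, since the 12 or 13 genes left out by the filter are not in it. Between SAP and Control 14 of 22 Hox genes had a positive log2 fold change (median 0.26, against 0.06 over all genes tested). With library totals in place of TMM it was 19 of 22 (86.4%, median 0.42), where 63.2% of all genes were positive (median 0.25). Without SAP library 2 it was 17 of 21 (median 0.42). Between JZL184 and SAP 12 of 21 did (median 0.30, against -0.05), and between JZL184 and Control 14 of 21 (median 0.62, against 0.08). The median between JZL184 and SAP turned negative without JZL184 library 3 (-0.11, 10 of 21 positive) and without SAP library 2 (-0.06, 10 of 21). Between JZL184 and Control it was 0.26 without JZL184 library 3 (13 of 21 positive). In both comparisons with JZL184, which share the JZL184 libraries, all 6 HoxA genes tested were positive and all 5 HoxC genes tested were negative. Without JZL184 library 3 all 6 HoxA genes were still positive in both, at smaller values for the genes given above, and 4 of 5 HoxC genes were negative in both. The signs did not all hold without the libraries that stood apart. Hoxa3 (-0.13), Hoxa4 (-0.08) and Hoxa5 (-0.12) were then negative against SAP, and Hoxa3 (-0.05) and Hoxa4 (-0.13) against Control. The other HoxA genes tested in those fits stayed positive, whereas Hoxc9 became positive in both and Hoxc8 against Control. Genes of 1 cluster can share regulation and are not independent of each other.

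Few partners and regulators of the Hox genes were called, but few genes of any kind were. The share of all genes called was 0% in both comparisons with SAP and 2.16% between JZL184 and Control. Counts of 0 in lists this short are therefore not read as a result about them. TALE homeodomain proteins of the PBX, MEIS and PKNOX families bind DNA together with Hox proteins, and of 9 such genes 8 were tested in each comparison and 0 were called. Meis2 came nearest between SAP and Control (log2 fold change 1.09 ± 0.39, adjusted p = 0.459), with 2.94 to 6.47 in Control, 8.99 to 14.5 in SAP and 7.24 to 15.4 in JZL184, so that neither group overlapped with Control. Of the Polycomb genes 19 of 19 were tested and 0 were called, and of the genes of the opposing MLL and UTX complexes 9 of 9 were tested and 0 were called. The Polycomb sum was 1037 and 1075 in SAP libraries 1 and 2 and 444 to 666 elsewhere, and JZL184 library 3 lay within the latter range. The homeobox factors Cdx1 and Cdx2, which act upstream of posterior Hox genes in the embryo and keep the identity of the gut epithelium, had 268 and 863 in JZL184 library 3, the highest of all libraries, against 82.9 to 139.8 and 312 to 757. Neither was called in any comparison.

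Retinoic acid, the signal that sets the anterior Hox genes in the embryo, had 1 called gene among its pathway. Of 18 listed genes 16 were tested between JZL184 and Control, and 1 was called, where 2.16% of all genes were. It was Crabp2, which carries retinoic acid to its receptor. Crabp2 had 26.4, 28.9 and 11.9 in Control, 3.28, 4.94, 20.9 and 5.43 in SAP, and 1.68, 1.62, 2.87 and 1.63 in JZL184. Every JZL184 library lay below every Control and SAP library, with a log2 fold change of -3.46 ± 0.42 against Control (adjusted p = 0.0149 by edgeR). Within the JZL184 group library 3 was the highest.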

How the data were processed

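Stranded mRNA libraries of rat ileum were sequenced on an Illumina NovaSeq instrument. After trimming, the authors aligned the reads to mRatBN7.2 with HISAT2 and deposited a raw count of uniquely aligned reads per gene and FPKM with 2 decimals, normalized by the authors for length and library size. Neither the counting tool nor the annotation is named in the sources used here. Depth was 26341299 to 33847135 reads per library, so that below about 100 reads counting error adds to the spread between rats. Intervals and floors cover counting error only, since reads without molecular identifiers are not independent molecules.

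RPM was computed from each count and the total of its library. Groups came from the labels. Control libraries 1 and 2 were summed once their counts had been compared, where the labels alone give 3 Control samples. Replicates are rats of the same group, and p-values measure the spread between them. Pairs of groups were compared over all genes with edgeR 4.0.16 in R 4.3.3 (quasi-likelihood, TMM, minimum count 10), and the test was tested on simulated data. The alternatives used DESeq2 1.42.0, limma 3.58.1, other scalings and filters, length offsets (span 0.3), left-out libraries and a replicate block. Python 3.11.15 with pandas 2.3.3 and matplotlib 3.10.9 made tables and plots.

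The Hox genes and all lists were chosen with earlier results of these data known. Every Hox gene could be named. Values per library were given for the 3 genes of each cluster with the highest mean FPKM and for the 3 genes with the smallest p in each comparison, and Hoxb4, Hoxa11 and Hoxd11 were added after their values were seen. Genes of other lists were named where called, among the 3 smallest p of their list or as markers of a gut region or cell type, as were some chosen after their values were seen. Promoters were matched by symbol in RefSeq (GRCr8), which gave 18 of the 34 genes. Some genes are not reported here by name.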

Additional observations from a re-analysis of the deposited data

Results flagged for a closer look

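In each group of 4 libraries, the gap between the highest or the lowest library and its nearest neighbor was compared with the whole range of the group. Of 92 such groups of values, 22 had a library set apart beyond the 95% limit of Dixon's ratio, and 12 of the 22 were JZL184 library 3. By chance about 1 in 20 independent groups pass this limit, but the 92 cannot be judged by that rate. They include sums of the same Hox genes, and genes of other lists picked with earlier results known. The values of different Hox genes in a library are not independent.

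In JZL184 library 3 the Hox genes set apart as high were Hoxa3 (4.72 RPM), Hoxa4 (7.80), Hoxa5 (6.38), Hoxa6 (1.78), Hoxa7 (10.0), Hoxa9 (12.5), Hoxd8 (3.55) and Hoxd10 (9.14), with the sums of HoxA (48.1) and HoxD (22.9). The colon gene Car1 (649) and the retinoic acid carrier Crabp2 (2.87) were set apart in that library too. In JZL184 library 1 these were Gata4 (30.6) and Lct (303), both proximal genes.

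In SAP library 2 Gata4 (14.1), Lct (50.5) and Cubn (25.3) were set apart as high, and Hoxa4 (0.691) and Hoxb6 (1.88) as low. Hoxd9 (1.14) and Crabp2 (20.9) were set apart in SAP library 3, and Hoxd10 in SAP library 1 at 0.0886, a value of 3 reads at the floor.

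Of 6 rows of the Hox clusters outside the 34 genes, 5 exceeded every Control library in JZL184 library 3. They were LOC100911668 (3.05 RPM), Hoxa11-as (5.77), Hoxaas3 (7.25), Hoxb5os (2.03) and Hotairm1 (0.218). The row Mir196c did not, at 0.0363 against 0.0346 to 0.110, and exceeded every Control library in SAP library 1 (0.561).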

How the results depend on the processing

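Over the 3 comparisons, 59 alternatives were run on the count of Hox genes called, and 54 gave 0. The other 5 were DESeq2 with 3 separate Control libraries in SAP against Control (1, Hoxb3), the same in JZL184 against Control (2, Hoxa2 and Hoxa5), edgeR with 3 separate Control libraries there (1, Hoxa2), the replicate block with 3 separate Control libraries there (1, Hoxa2, where 9.65% of all genes were called), and JZL184 libraries 1 and 3 left out (1, Hoxb9), an alternative added with the data in view. With the replicate block 0 Hox genes were called in the other comparisons, and libraries of the same number did not deviate together (correlations of -0.429 to 0.117), so the numbers do not pair the rats. Of the 9 log2 fold changes given, 1 changed sign, Hoxa3 between JZL184 and SAP without the libraries that stood apart (-0.13). The share of posterior groups in Control was 6.39% on the FPKM scale against 4.94% of reads. In JZL184 it was 5.44% against 5.68%, so the order of these 2 groups depended on the scale. Library totals in place of TMM moved the median log2 fold change of all genes from 0.06 to 0.25 between SAP and Control. Depth limited the 11 genes under 100 reads, of which none was tested in the filtered comparisons.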

Other observations

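SAP libraries 1 and 2 stood apart from the other 9 libraries in many partners and chromatin regulators of the Hox genes, a pattern chosen after the values were seen. Both lay above all the others for 11 of 19 Polycomb genes, 6 of 9 genes of the MLL and UTX complexes and 4 of 9 TALE genes, and below all of them for 3, 0 and 2 genes of the same lists. Both also lay above for 3 of 8 fibroblast and 3 of 6 endothelium markers, and below for 0 and 1 of them. They lay above for 0 of 18 retinoic acid genes and 0 of 10 epithelial markers, but below for 4 and 3 of them. The share over all genes was not counted, so the pattern cannot be called particular to Hox partners. Over all genes these 2 libraries differed from SAP libraries 3 and 4 (chi-square per gene 337 to 563) more than from each other (85.5). Meis1, a cofactor of many Hox proteins, had 5.20 and 5.46 RPM in them and 0.551 to 2.53 elsewhere. Kmt2a, the methyltransferase that keeps Hox genes active, had 27.7 and 37.0 against 5.36 to 14.4. Suz12, a core Polycomb subunit, had 79.0 and 84.2 against 12.2 to 43.9. The Polycomb genes Ring1 (29.8 and 28.9), Pcgf2 (11.97 and 12.1) and Rbbp4 (43.5 and 45.3) were lowest in these libraries. These 2 libraries nevertheless differed in their Hox genes, with Hoxb9 at 33.2 and 3.62 and Hoxb7 at 139.5 and 17.1, and were alike in Hoxc8, at 22.4 and 22.2.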
